A study of Mus musculus with 6 samples.

Results

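The TAM receptors are 3 related receptor tyrosine kinases, encoded by Tyro3, Axl and Mertk, and their ligands are the secreted proteins encoded by Gas6 and Pros1. These 5 genes were taken by symbol from a table of 24091 genes, and the set was chosen by the counts of these same aged and young libraries, with the differences already known. The values of that comparison are therefore given for them as a description, without p-values. The study sequenced RNA of sorted hematopoietic stem cells, which renew the blood throughout life, from wild-type mice; the sort kept cells with Sca-1, c-Kit and CD150 but without lineage markers or CD48. The aged group had 3 libraries from mice of 20 months (aged 1 to aged 3), and the young group had 3 from mice of 2 months (young 4 to young 6). Cells of 4 mice were pooled for the aged group and cells of 30 mice for the young group; the labels do not say whether that is the number behind a single library or behind all 3. Libraries of a group thus differ as pools of cells do, and some of that may be technical. The series title concerns miR-126 and vessel remodelling in the ageing marrow, and no other treatment or genotype is given.

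The TAM ligands act as bridges. One end carries a Gla domain, made by vitamin K-dependent carboxylation, which binds phosphatidylserine exposed on dying cells, platelets and blebs; the other end binds the receptor. Receptor activation drives the engulfment of dying cells by phagocytes and dampens innate cytokine signalling. Gas6 binds all 3 receptors and is the ligand of Axl, whereas protein S, the product of Pros1, acts on Tyro3 and Mertk and is also an anticoagulant cofactor of activated protein C. In bone marrow these genes are best known from macrophages, endothelium, megakaryocytes and stroma.

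All 5 members had a single row in the deposited table, and all 5 had enough counts to enter the test over 13413 genes. The Mertk row spanned chr2:128698997-128802188 on the plus strand (mm10), and Tyro3 lay on the same chromosome and strand at chr2:119797740-119818103. Axl lay at chr7:25756500-25788733 and Gas6 at chr8:13465374-13494535, both on the minus strand, and Pros1 at chr16:62854307-62929342 on the plus strand. All 5 are protein-coding genes in the GENCODE M21 annotation of the same build. The library kit does not mark strand. The GENCODE interval of Gas6 overlaps that of Tmem255b on the opposite strand, but Tmem255b had 2 counts over the 6 libraries. The antisense gene Gm14011 lies within Mertk and has no row in the table, so its reads could not be told apart from those of Mertk. In the table, the interval listed for Mir684-1 covers both Mertk and Tyro3 and that of Btg3 covers Pros1; Mir684-1 had 1014 counts and Btg3 605 counts in all.

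The sequence before the RefSeq start of each gene was examined because most of the members moved together between the groups. Windows of 250 bases upstream of the RefSeq start (GRCm38.p6) were matched for all 5. Shown here, 5′ to 3′ on the strand of the gene, are Mertk (chr2:128698665-128698914, plus strand) and Gas6 (chr8:13494536-13494785, minus strand), the members with the largest differences by age. Tyro3 (chr2:119799264-119799513, plus strand), the member whose groups overlapped, is set beside them. Its window lies inside the interval of the counted Tyro3 row, which begins at 119797740, so it is not upstream of that row's start. Capitals mark GC boxes, the letters GGGCGG on either strand, which Sp-family factors recognise.
Mertk: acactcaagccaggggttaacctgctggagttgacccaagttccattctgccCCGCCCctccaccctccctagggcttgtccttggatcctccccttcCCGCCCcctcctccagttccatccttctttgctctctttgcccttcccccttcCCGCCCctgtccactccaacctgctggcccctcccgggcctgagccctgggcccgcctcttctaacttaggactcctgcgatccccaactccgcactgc
Gas6: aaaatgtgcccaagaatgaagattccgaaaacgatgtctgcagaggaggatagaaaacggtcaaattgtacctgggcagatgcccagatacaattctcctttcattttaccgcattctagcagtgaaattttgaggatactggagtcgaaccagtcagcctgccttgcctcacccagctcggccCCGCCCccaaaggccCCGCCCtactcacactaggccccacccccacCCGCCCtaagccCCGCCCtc
Tyro3: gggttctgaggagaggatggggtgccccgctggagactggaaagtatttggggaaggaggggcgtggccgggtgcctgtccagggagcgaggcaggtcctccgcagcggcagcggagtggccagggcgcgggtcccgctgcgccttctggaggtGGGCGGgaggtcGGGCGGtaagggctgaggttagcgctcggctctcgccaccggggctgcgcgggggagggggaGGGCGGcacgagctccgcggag
The GC box was found in all 5 windows, with 3 matches in Mertk, 1 in Axl, 3 in Tyro3, 4 in Gas6 and 5 in Pros1, where the last 2 overlap. Of 32851 RefSeq windows of the same length, 32.7% held at least 1 match. The matches did not set Tyro3 apart from the other members. The nearest match lay 8 bases before the start in Gas6 and Pros1, 10 in Axl, 22 in Tyro3 and 99 in Mertk, counted from the first base of the match. No window held a TATA box (TATAAA, 12.4% of all windows), an AP-1 site (TGAGTCA, 4.46%) or a RUNX site (TGTGGT, 14%) on either strand. GC content was 73.2% in the Tyro3 window and 54.8% to 64.4% in the other 4, against a median of 52.4% over all windows. The ratio of observed to expected CpG was 0.813 in Tyro3, 0.615 in Pros1, 0.57 in Gas6, 0.351 in Mertk and 0.233 in Axl.

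Library totals ran from 16452829 to 21918658 counts, and a count of 3, the limit that a count of 0 allows, equalled 0.132 to 0.239 CPM. CPM, the usual depth-scaled counts, are given after TMM scaling, a correction for differences in library composition. Young 4 stood apart from the other libraries: its Actb share was 4.06% against 0.555% to 1.36% elsewhere, and its scaling factor was 0.765 against 1.04 to 1.08. Among genes of the sort, Slamf1 (CD150) stood at 62.3 to 121 CPM and Kit at 320.2 to 1033 CPM over the 6 libraries. Cd48 was at 0.511 to 2.54 CPM in the aged libraries and at 8.59 to 14.5 CPM in the young ones. By edgeR's quasi-likelihood test, 571 genes were higher and 201 lower in aged cells at an adjusted p under 0.05. After removal of a GC and length trend per library, the split was 697 to 687.

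Mertk, the receptor best known for the engulfment of dying cells by macrophages, stood at 3.31, 3.92 and 4.50 CPM in aged 1, aged 2 and aged 3. It stood at 0.795, 1.20 and 1.23 CPM in young 4, young 5 and young 6. All aged libraries were above all young ones. The read counts behind these values were 69, 76 and 97 in aged and 10, 24 and 28 in young libraries, so the young level rests on few reads. The means were 3.91 ± 0.598 and 1.07 ± 0.241 CPM (SD, n = 3 each), and the fitted log2 fold change was 1.84 ± 0.31 (SE), or 3.58-fold.

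Axl, the receptor with the highest affinity for Gas6, had 30.6, 16.2 and 23.5 CPM in aged 1 to aged 3 and 11.2, 12.9 and 12.3 CPM in young 4 to young 6. The groups did not overlap, but aged 2 came close to the young libraries. Aged cells varied far more than young ones, with a coefficient of variation of 30.8% against 6.92%. The means were 23.4 ± 7.22 and 12.1 ± 0.839 CPM, a log2 fold change of 0.95 ± 0.26 or 1.93-fold.

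Tyro3, best known from the nervous system, was barely detected. It had 20, 10 and 8 counts in aged 1 to aged 3 and 3, 22 and 11 counts in young 4 to young 6. The groups overlapped throughout: the highest value, 1.10 CPM, and the lowest, 0.239 CPM, were both in young libraries. Means were 0.615 ± 0.306 CPM in the aged libraries and 0.606 ± 0.442 CPM in the young ones, with a log2 fold change of -0.02 ± 0.62. At this depth a difference of moderate size in Tyro3 was not detectable, and its sign changed with the scaling and with the library left out.

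Gas6 stood at 20.7, 18.9 and 35.3 CPM in aged 1 to aged 3. In young 4 to young 6 it stood at 5.96, 8.12 and 10.1 CPM. The groups did not overlap, and aged 3 was the highest library. Means were 24.96 ± 8.98 and 8.07 ± 2.08 CPM, a log2 fold change of 1.62 ± 0.33 or 3.08-fold.

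Pros1 was the most abundant member, with 69.0, 109.8 and 118 CPM in aged 1 to aged 3 and 45.5, 46.3 and 51.5 CPM in young 4 to young 6. The groups did not overlap, and aged 1 lay nearest to the young libraries. Its means were 98.9 ± 26.2 and 47.8 ± 3.24 CPM, a log2 fold change of 1.05 ± 0.23 or 2.07-fold. As for Axl, the aged libraries were more spread than the young ones, with coefficients of variation of 26.5% and 6.78%. The aged library with the lowest Pros1, aged 1, was the one with the highest Axl.

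**Figure D1:**
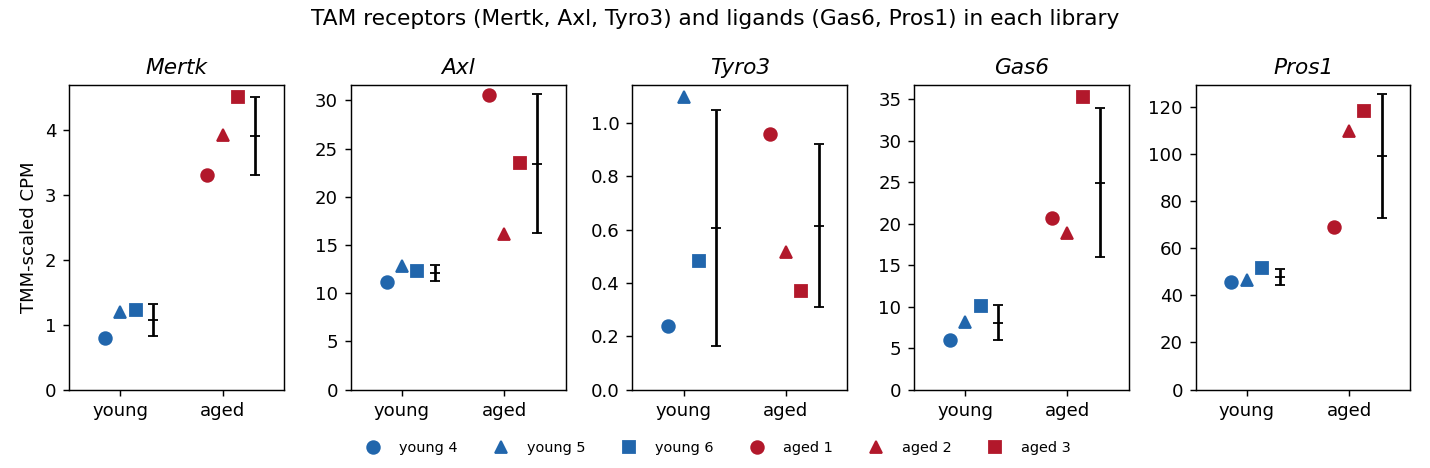
TMM-scaled CPM (vertical axes, each starting at 0) of the 5 genes in every library, young in blue and aged in red, with the mean and SD (n = 3) in black beside each group. Aged and young points are separate for Mertk, Axl, Gas6 and Pros1 and overlap for Tyro3.

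In the fit over all genes, Mertk, Gas6 and Pros1 were among the genes called higher in aged cells, and Axl and Tyro3 were not called. Of all tested genes 4.26% were called higher, 1.5% lower and 5.76% in either direction, and nothing is read from the 3 of 5, since the members were chosen with this contrast known. The same holds for the 4 of 5 members whose groups did not overlap, a separation seen for 36.6% of all tested genes with aged above young for 19% and below for 17.6%. The median log2 fold change was 1.05 over the 5 members and 0.04 over all tested genes. The calls rested on most of the libraries. Mertk and Gas6 kept theirs only without young 4, and Pros1 only without aged 1, among the 6 fits that left out 1 library each; without both young 4 and aged 2 none was called. With 1 library left out, the log2 fold change ran from 1.66 to 1.94 for Mertk, 1.29 to 1.82 for Gas6, 0.90 to 1.25 for Pros1 and 0.71 to 1.13 for Axl. After removal of the GC and length trend it was 0.50 for Axl and 1.26 for Gas6, the lowest of any setting for both. By limma-voom Pros1 was not called (log2 fold change 1.01).

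**Figure D2:**
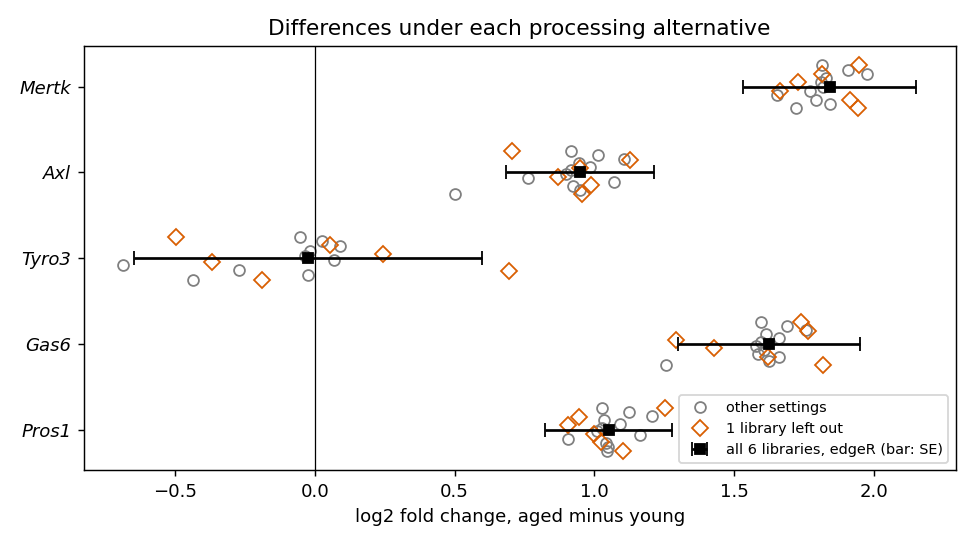
Log2 fold change, aged minus young (horizontal axis), of the 5 genes with all 6 libraries (black square, bar for the SE), with 1 library left out (orange diamonds) and under the other settings (grey circles). Mertk, Axl, Gas6 and Pros1 stay above 0 under every setting plotted, and Tyro3 lies on both sides of it.

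Levels of different genes were compared per kb of the gene length given in the table. The order was the same in each of the 6 libraries: Pros1 was highest, followed by Gas6, Axl, Mertk and Tyro3. In aged cells the means were 30.1 ± 7.98 CPM per kb for Pros1, 9.68 ± 3.48 for Gas6, 4.202 ± 1.30 for Axl, 1.10 ± 0.167 for Mertk and 0.128 ± 0.0638 for Tyro3. In young cells they were 14.5 ± 0.986, 3.13 ± 0.808, 2.18 ± 0.151, 0.300 ± 0.0675 and 0.126 ± 0.0921 CPM per kb in the same order. No neighbours in this order overlapped in aged cells. In young cells, the ranges of Mertk (0.223 to 0.344) and Tyro3 (0.0497 to 0.228) overlapped, and the highest Axl value, 2.307, lay just under the lowest Gas6 value, 2.313. With the length of the longest GENCODE transcript in place of the table's, a check added after seeing the data, Axl was above Gas6 in young 4 (2.63 against 2.34 CPM per kb) and the order held in the other 5 libraries. Among all tested genes, the mean level per kb was above 72.6% of genes for Pros1, 45.6% for Gas6, 32.2% for Axl, 11.8% for Mertk and 1.38% for Tyro3.

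**Figure D3:**
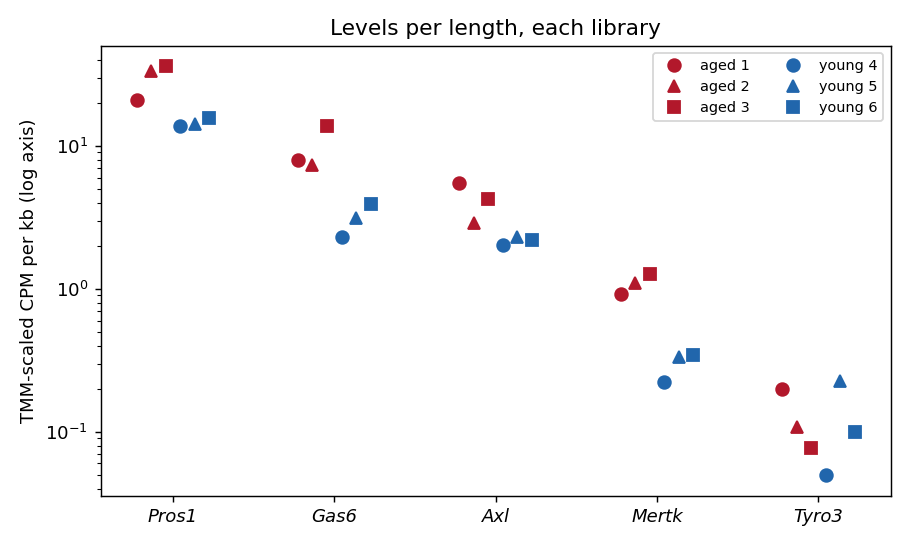
Levels in CPM per kb of gene length (vertical log axis) of the 5 genes in each library, ordered from the highest to the lowest, aged in red and young in blue. The ligands Pros1 and Gas6 lie above the receptors, and among the receptors Axl lies above Mertk and Tyro3 in each library.

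Axl made up most of the receptor RNA. Per kb, it held 83.0%, 70.6% and 75.9% of the summed level of the 3 receptors in aged 1 to aged 3, and 88.1%, 80.4% and 83.3% in young 4 to young 6. The ratio of Axl to Mertk was 5.93, 2.64 and 3.34 in aged and 9.04, 6.89 and 6.43 in young libraries. All aged ratios were below all young ones, but the gap was narrow, from 5.93 in aged 1 to 6.43 in young 6. The young ratios rest on only 10, 24 and 28 Mertk reads. Single genes separated in this way in 36.6% of those tested, and nothing is read from the separation of the ratio. Pros1 held 72.4%, 82.0% and 72.4% of the ligand level in aged and 85.7%, 81.7% and 80.0% in young libraries, with overlap. Summed over both ligands, the level was 29.0 to 49.6 CPM per kb in aged and 16.2 to 19.6 in young cells. Summed over the receptors, it was 4.11 to 6.62 and 2.28 to 2.87 CPM per kb. The ratio of ligands to receptors was 7.75 ± 2.95 in aged and 6.82 ± 0.718 in young cells, and it overlapped, with both the lowest value (4.39, aged 1) and the highest (9.93, aged 2) in aged libraries.

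The members did not share a single pattern over the 6 libraries. Likeness was measured as the root mean square difference between centred log2 CPM profiles over the 6 libraries, against 10554 or 10555 tested genes with at least 5 CPM on average. Mertk and Gas6 were the closest pair of members, at 0.24; 21 genes were closer to Mertk than Gas6 was, and 19 were closer to Gas6 than Mertk was. The nearest genes to Mertk were Exoc6b (0.11), Crb3 (0.12) and Cbr3 (0.15), and those to Gas6 were Cracr2b (0.11), Cbr3 (0.15) and Meg3 (0.17). Cbr3 thus stood on both lists. Nearest to Axl were Ninl (0.07), Tnks1bp1 (0.08) and Mroh1 (0.09), which had their highest value in aged 1 and their lowest aged value in aged 2, as Axl had. Nearest to Pros1 were Gata3 (0.09), Homer1 (0.10) and Rora (0.10), which like Pros1 were lowest among aged libraries in aged 1. For both Axl and Pros1, a shared order of libraries follows from the choice of genes by likeness. Golm1 (0.22), D17H6S56E-5 (0.25) and Xpo5 (0.25) were nearest to Tyro3, at larger distances than for the other members.

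Around the receptors and ligands, 9 lists of 129 genes were examined, drawn up with earlier results of these data known, those of Plscr2 and Procr among them. Of the 107 tested genes, 5 were higher and 1 was lower in aged cells, or 5.61%, against 5.76% of all tested genes. Plscr2 and Procr are among the 5, and their differences were known when they were listed. Their values are therefore given as a description without p-values, and nothing is read from the share. Plscr1 and Plscr4, of the same family as Plscr2, are treated likewise. Adjusted p-values of other listed genes come from the same data whose earlier results were known, and they are not used as support. The other 101 did not pass the test, and the median log2 fold change was 0.22 against 0.04 over all. Calls in these lists are by edgeR's quasi-likelihood test, adjusted over all tested genes. Over all tested genes DESeq2 called 16.3% and limma-voom 6.09%, the shares to set beside their list counts. An unadjusted p under 0.05 was common over all genes: for Plcg2, edgeR's p of 0.0487 became 0.197 after adjustment. Nothing is therefore read from the counts of unadjusted p in the pathway and marker lists.

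The genes that put phosphatidylserine on the cell surface held 3 of the 5 higher calls. They are all phospholipid scramblase genes of the Plscr family. Plscr2 stood at 241, 278 and 224 CPM in aged and 8.67, 8.32 and 5.79 CPM in young libraries (32.7-fold). Plscr1 rose 2.34-fold, from 125 ± 9.55 to 291 ± 19.2 CPM, and Plscr4 rose 1.95-fold, from 53.2 ± 3.80 to 103.5 ± 18.5 CPM. The other 10 tested genes of this list did not pass, among them those with the best-known part in exposure: the scramblase genes Xkr8 (12.6 ± 2.25 CPM in aged, 9.73 ± 1.38 CPM in young) and Ano6 (112 ± 6.52 and 103 ± 19.7 CPM), and Tmem30a, the partner subunit of the flippases (226 ± 15.9 and 212 ± 4.22 CPM). These 3 genes were added to the named ones after their values were seen. The median of the list was 0.13. With 1 library left out, Plscr2 kept its call in 6 of 6 fits, Plscr1 in 2 (without aged 1 or young 4) and Plscr4 in 1 (without young 4).

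Of the 7 genes of vitamin K-dependent carboxylation, which makes the Gla domains of Gas6 and protein S, Aifm2 rose and the other 6 did not pass. Aifm2, which encodes a vitamin K reductase known for its role against ferroptosis, stood at 20.1, 21.001 and 20.9 CPM in aged and 8.75, 11.7 and 10.6 CPM in young libraries (1.99-fold, adjusted p = 0.0371); it kept its call in 1 of 6 fits with a library left out, that without young 4. Ggcx, the carboxylase itself, averaged 25.4 ± 3.09 CPM (aged) and 26.5 ± 3.49 CPM (young), and Vkorc1, which recycles vitamin K, at 101.5 ± 9.49 and 114.5 ± 29.2 CPM (both named after their values were seen). The median of the list was 0.03. Of 13 other genes for Gla proteins, 6 were tested and none was called by edgeR, while 2 had an unadjusted p under 0.05, DESeq2 called 1 of them (F10, lower) and limma-voom called 0. F10, encoding coagulation factor X, averaged 3.58 ± 2.34 CPM (aged) and 14.4 ± 5.68 CPM (young; adjusted p = 0.0738), and Prrg4 at 11.01 ± 0.602 and 7.78 ± 0.852 CPM (adjusted p = 0.183). The median of these 6 was 0.08.

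In the protein C pathway, in which protein S is a cofactor, 1 of 6 tested genes rose and 1 fell. Procr, the endothelial protein C receptor and a stem cell marker, rose 2.82-fold, with 101, 103 and 136 CPM in aged and 37.7, 40.6 and 42.4 CPM in young libraries. F5, coagulation factor V, fell 2.83-fold, with 7.86, 6.97 and 5.71 CPM in aged and 13.9, 24.2 and 19.9 CPM in young libraries (adjusted p = 0.0317). Procr kept its call in 4 of 6 fits with a library left out, all but those without young 5 or young 6, and F5 in 1, that without young 4. Proc, which encodes protein C itself, was at or under 0.568 CPM in every library. The median of the list was -0.09.

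Other phosphatidylserine receptors and bridges held no called gene among 15 tested; 3 had an unadjusted p under 0.05, DESeq2 called 2 higher, limma-voom called 0, and the median was 0.16. Itgb3, a subunit of the integrin that binds the bridge protein Mfge8, averaged 81.3 ± 44.5 CPM (aged) and 26.5 ± 10.4 CPM (young; adjusted p = 0.0845). Tulp1, a reported ligand of the TAM receptors, was at 3.71 ± 1.44 and 1.59 ± 0.0716 CPM (adjusted p = 0.0909). Mfge8 stood at 124 ± 27.2 and 88.9 ± 44.6 CPM, and was named after its values were seen.

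None of the 6 genes of receptor shedding was called by edgeR, DESeq2 or limma-voom, and 0 had an unadjusted p under 0.05. Adam10 and Adam17, the proteases that release the ectodomains of Axl and Mertk, stood at 431 ± 59.5 and 66.0 ± 1.59 CPM in aged and at 453 ± 56.2 and 68.1 ± 4.92 CPM in young cells. The genes with the smallest p were Rhbdf1 (adjusted p = 0.376) and Rhbdf2 (adjusted p = 0.387), which encode partners of Adam17, and the median was 0.19. Of 30 tested genes of signalling below the receptors, none was called and 5 had an unadjusted p under 0.05, with a median of 0.15; DESeq2 called 2 lower and limma-voom 0. The Src-family kinase gene Fyn averaged 21.3 ± 3.82 CPM (aged) and 40.6 ± 11.6 CPM (young; adjusted p = 0.078).

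The innate signalling genes on which the receptors feed back had the highest median of the 9 pathway lists, 0.62, and 11 of 12 tested genes had a positive log2 fold change, against 52.7% of all tested genes. None passed the adjusted threshold by edgeR, and 7 had an unadjusted p under 0.05; DESeq2 called 4 higher and limma-voom 0. Twist1, a repressor of cytokine genes induced by Axl, averaged 1.13 ± 0.394 CPM (aged) and 0.334 ± 0.0548 CPM (young, adjusted p = 0.0658). Its values rest on few reads, 16, 30 and 23 in aged 1 to aged 3 and 5, 6 and 7 in young 4 to young 6. Tlr4, the endotoxin receptor gene, was at 27.6 ± 2.63 and 17.2 ± 2.41 CPM (adjusted p = 0.0841). Of 12 tested genes reported to regulate Mertk or Axl in macrophages, none was called by edgeR, 5 had an unadjusted p under 0.05 and the median was 0.37; DESeq2 called 4 higher and limma-voom 0. Nr1d1, the clock repressor REV-ERB alpha, was at 13.5 ± 3.25 and 4.66 ± 2.18 CPM (adjusted p = 0.0635). Nr1h3, the oxysterol receptor LXR alpha, was at 6.75 ± 1.52 and 2.601 ± 1.18 CPM (adjusted p = 0.0851).

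**Figure D4:**
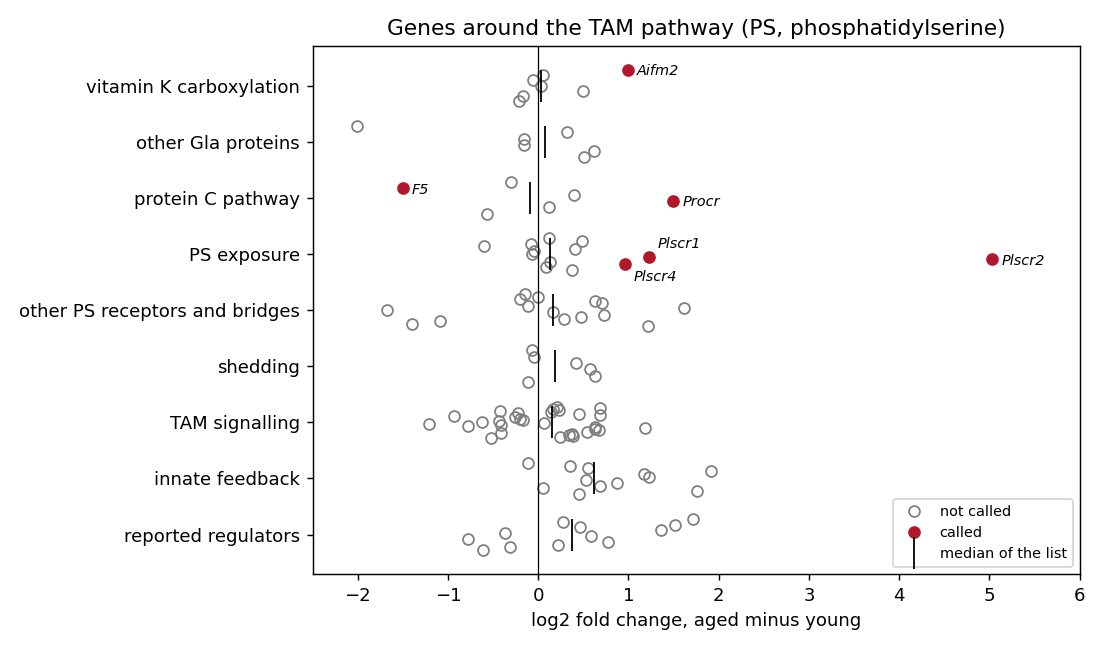
Log2 fold change, aged minus young (horizontal axis), of each tested gene of the 9 lists (rows), with called genes filled and named and the list median as a black bar. The 6 called genes are Plscr2, Plscr1, Plscr4, Procr and Aifm2, above 0, and F5, below 0.

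Markers of cells that are known sources of TAM gene RNA were set beside these values. In bulk samples, a change in the number of cells of a type and a change in RNA per cell cannot be told apart. Of 17 macrophage markers, 14 were tested, none was called by edgeR or limma-voom, 4 had an unadjusted p under 0.05 and 3 had a positive log2 fold change; DESeq2 called 1 higher and 2 lower. Their summed level was 336 to 377 CPM in aged and 311 to 417 CPM in young libraries, most of it Lyz2 (303 ± 22.5 and 273 ± 35.5 CPM) and Cd68 (19.5 ± 1.93 and 24.8 ± 13.1 CPM). The defining markers Csf1r, Adgre1 and Siglec1 were at or under 1.91 CPM in every library. Other markers stood higher, among them Cd163 (7.09 ± 1.29 CPM in aged, 9.27 ± 1.42 CPM in young), Vcam1 (3.81 ± 1.37 and 8.88 ± 1.67 CPM) and C1qc (4.61 ± 0.347 and 7.29 ± 1.80 CPM). All of these were named after their values were seen. Aged values were all below young for 5 of the 14 tested markers and all above for 1. Over all tested genes the shares were 17.6% and 19%. Of 11 tested megakaryocyte and platelet markers, Ppbp was called lower by edgeR and limma-voom and none higher, while DESeq2 called 2 higher and 1 lower. Ppbp averaged 5.99 ± 0.459 CPM (aged) and 26.95 ± 10.2 CPM (young). Vwf, not called by edgeR and named after its values were seen, averaged 168 ± 46.7 and 71.2 ± 17.5 CPM. Aged values were all above young for 3 of the 11 markers and all below for 2, against 19% and 17.6% of all tested genes. Their sums overlapped (1366 to 2461 CPM in aged, 1145 to 2250 CPM in young).

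The summed level of the endothelial markers was 570.1 to 736 CPM in aged and 356 to 517 CPM in young libraries, without overlap. Most of it was Esam (154 ± 37.4 and 84.1 ± 37.4 CPM), Tek (123 ± 11.5 and 113 ± 10.1 CPM), Egfl7, Tie1 and Pecam1. None of these was called by edgeR, and the last 3 were named after their values were seen. Of 11 tested, 7 had a positive log2 fold change and the median was 0.28. Aged values were all above young for 4 of them, and for 19% of all tested genes. By edgeR and limma-voom 1 was called higher, which by edgeR was Cldn5; 2 had an unadjusted p under 0.05 and DESeq2 called 2 higher. Cdh5, the defining VE-cadherin gene, was at or under 1.27 CPM throughout. Marrow stromal markers summed to 16.1 to 29.9 CPM in aged and 17.1 to 93.4 CPM in young libraries, the highest in young 6, and Ibsp and Cxcl12 were called lower. Markers of the sorted stem cells themselves also moved, from 1459 to 2535 CPM in young to 2734 to 3336 CPM in aged libraries, with 5 of 12 called higher and 3 lower by edgeR. Natural killer markers summed to 118 to 209 CPM in aged and 5.58 to 10.2 CPM in young libraries through Klrb1c; the defining gene Ncr1 was at 0.103 CPM in aged 2 and at 0 counts in the other 5. Of dendritic cell markers Clec9a was called higher and Flt3 lower, of T cell markers Cd4 was called lower, and no B cell or erythroid marker was called by edgeR (1 and 4 had an unadjusted p under 0.05; DESeq2 called 1 and 3 higher, limma-voom 1 and 0). The part of these cell types and of stem cell composition in the values of the TAM genes was not tested.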

How the data were processed

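RNA of 6 libraries was sequenced after amplification with the SMART-Seq v4 kit, per the labels' protocols. The deposited file is a single table of unscaled gene counts, which also lists each gene's position, strand and length in kb. Trimmomatic, STAR 2.6.0, HTSeq 0.11.1, edgeR and build mm10 are named in the submitters' processing notes; for the annotation and the assignment of reads to genes: not given in the sources used here. Columns were assigned by sample title.

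The test was edgeR 4.0.16 under R 4.3.3 (filterByExpr, TMM, glmQLFit, glmQLFTest) on all 6 libraries with age as the only term, and Benjamini-Hochberg adjustment over 13413 genes, which held 99.9% of the counts; the threshold was 0.05. Log2 fold changes are aged minus young, and an SE is the log2 value divided by the square root of its F statistic. CPM have no pseudocount; centred log2 CPM used a prior count of 2. The limit from 3 counts holds for counting error alone, as PCR duplicates are no separate molecules.

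The members and all lists were chosen with earlier results of these data known. Besides the members, the rule named up to 5 called genes of each pathway list or the 2 of smallest p, up to 3 called markers and the 2 of highest level per marker list, overlapping genes, and the 3 most similar genes per member; some markers were left out for length, and genes named as added were chosen after their values were seen. A gene of the signalling list that the rule names is not reported here.

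The fit was tested on counts simulated for 13413 genes, aged against young: of 100 genes changed 4-fold 72% were recovered, of 100 changed 2-fold 6%, and 0 unchanged genes were called. Alternatives were other scalings and filters, DESeq2 1.42.0, limma-voom (limma 3.58.1), thinning, removal of genes above 1% of a library, a GC and length correction with GC content from GENCODE transcripts, and leaving out libraries.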

Additional observations from a re-analysis of the deposited data

How the results depend on the processing

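No paired analysis was possible because the groups share no replicate number. The 571 higher and 201 lower genes became 363 and 80 with at least 5 CPM in 3 libraries, 1255 and 926 by DESeq2, and 2326 and 1768 by limma-voom with quality weights. Lower genes numbered 133 with library totals only, 342 without a filter and 687 after removal of the GC and length trend. With 1 library left out, higher genes ran from 71 (without young 5) to 679 (without young 4) and lower genes from 3 to 350. Of the members, 1 instead of 3 was called higher with library totals only and at 5 CPM (where Mertk and Tyro3 were not tested), 0 without young 4 and aged 2, and 0 to 2 with 1 library left out. DESeq2 and limma-voom with quality weights called 4, Axl included, and limma-voom called 2, without Pros1; none was called lower in any fit. The pathway lists' 5 higher and 1 lower became 15 and 5 by DESeq2, 22 and 9 by limma-voom with quality weights, 1 to 6 higher and 0 to 3 lower with 1 library left out; lower ones were 0 with library totals only, 3 without a filter and 5 after removal of the trend. Tyro3's log2 fold change turned positive with upper-quartile scaling (0.0275), library totals (0.0909), limma-voom (0.0705), the ratio of means (0.0232), and without aged 2 (0.06), aged 3 (0.24) or young 5 (0.69); with 1 library left out it ran from -0.49 to 0.69. With library totals only, the median of all genes was 0.20 instead of 0.04, so differences there are shifted up. With GENCODE lengths the level per kb was 0.909 for Mertk in aged and 2.84 for Axl in young cells. With a library left out, the young level ran from 2.10 to 2.40 for Axl and from 13.9 to 15.9 for Pros1, highest without young 4. The cause was not tested for any of these shifts. Levels per coding length from RefSeq proteins were not run. Mertk and Tyro3 rest on few reads, which limits the precision of both.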
